A study of Arabidopsis thaliana with 12 samples.

Results

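The comparison described here is that of 3x nrpd1 with 2x nrpd1 embryos of Arabidopsis thaliana, 3 libraries each and so 6 of the 12 libraries of the series, chosen by the cross named in their labels. All plants were of the Columbia-0 (Col-0) accession, and every mother was a diploid wild type. The 2x nrpd1 embryos came from diploid pollen donors carrying the nrpd1 mutation, called pol4 in the labels, and were dissected 6 days after pollination (DAP). The 3x nrpd1 embryos came from tetraploid nrpd1 pollen donors, obtained with colchicine, and were dissected at 8 DAP according to the labels, which was torpedo stage in both groups. Embryos of both groups therefore carried the mutant allele from the father and a functional NRPD1 from the mother. About 150 embryos were pooled per library and washed to remove endosperm. The sources disagree on this age, since the results text published with these data places torpedo stage of 3x nrpd1 at 6 DAP, the age of 2x nrpd1. If the labels hold, the groups differed in ploidy and in age at once, and these cannot be told apart. The other 6 libraries, 2x wt at 6 DAP and 3x wt at 8 DAP with wild-type pollen, are used only to show where the nrpd1 comparison differs from its wt counterpart.

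NRPD1 is the largest subunit of RNA polymerase IV, a plant polymerase that makes the precursors of small RNAs which guide DNA methylation, mostly at transposons. Seeds sired by tetraploid wild-type pollen have an excess of paternal genomes, their endosperm fails to form cell walls (to cellularize), and the triploid embryo inside arrests and dies, a reaction known as the triploid block. Loss of NRPD1 in the pollen donor restores cellularization in most such seeds and lets the triploid embryo live. The comparison asks which embryo transcripts still differ between ploidies when the endosperm has mostly cellularized. Embryos at this stage begin seed maturation, when storage proteins and oil accumulate under the LEC1, ABI3, FUS3 and LEC2 regulators before desiccation.

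The values are RPKM, reads scaled to gene length and library size, and level comparisons between genes are on this length-normalized scale. The depth recovered from the RPKM steps was 7185975 to 13602763 reads per library in the 6 libraries. The study lists more mapped reads for every one of them, and the search for the depth was limited to totals below these. It could not have returned the listed totals, and the cause of the gap was not tested. Read numbers given here are therefore approximate and may be too low. The 3x nrpd1 replicate 3 stood apart. Its RPKM summed to 866778 against 711651 to 734659 in the other 5, it had 16747 genes with at least 1 RPKM against 17236 to 17814, and its correlation between exon length and level relative to the other libraries was -0.663 (Spearman, across genes) against 0.203 to 0.476. The median correlation of log2 values with the other libraries of its group was 0.936, and replicate 1 of 3x nrpd1 correlated at 0.959 with its own group and at 0.968 with the 2x nrpd1 libraries. Results that rest on replicate 3 are given with and without it. NRPD1 itself had 4.48, 3.37 and 2.82 RPKM in 2x nrpd1 and 3.42, 3.61 and 1.78 RPKM in 3x nrpd1, a log2 difference of -0.16 (SE 0.26, limma adjusted p = 0.798). The reads do not separate the maternal from the paternal allele, so this level does not check the genotype. Of 16 endosperm markers 4 were tested and 0 passed (1 higher and 0 lower at an unadjusted p under 0.05), and their summed RPKM was 59.0, 60.5 and 69.4 in 2x nrpd1 and 75.5, 81.2 and 25.4 in 3x nrpd1, most of it from the sucrose transporter SUC5, which embryos also express. AGL62, the endosperm factor that represses cellularization, had at most 0.622 RPKM in every one of these 6 libraries. Of 11 seed coat markers 4 were tested and 0 passed (0 at an unadjusted p under 0.05), with sums of 198, 179 and 176 RPKM in 2x nrpd1 and 173, 191 and 116 RPKM in 3x nrpd1.

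Of 17585 genes tested, 159 were called higher in 3x nrpd1 (0.904%) and 3 were called lower (0.0171%), which is 0.921% in either direction. A gene was called when log2(RPKM + 0.5) differed by more than 1 between the groups with a limma adjusted p (Benjamini-Hochberg, two-sided) under 0.05, and fold changes on this scale understate those of low genes. The lowest adjusted p of the comparison was 0.00382. At an unadjusted p under 0.05, 1368 genes were higher (7.78%) and 542 were lower (3.08%). For comparison, 1988 of 17965 genes were called higher (11.1%) and 872 were called lower (4.85%) in 3x wt versus 2x wt. Standard errors of the log2 fold changes had a median of 0.233 in the nrpd1 comparison and 0.138 in the wt comparison. Because the groups are bulk embryo samples, fewer cells of a type and less RNA per cell cannot be told apart.

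The 159 genes had a median log2 fold change of 2.09, from 1.02 to 5.12, and in each of them every 3x nrpd1 library lay above every 2x nrpd1 library, as was so for 8.14% of all genes tested, while every 3x library lay below every 2x library in 14.8%. In 91 of them each 2x nrpd1 library had at least 1 RPKM, so that they were measured at both ploidies. In another 42 each 2x nrpd1 library was under 1 RPKM, and these could enter the test only through the 3x nrpd1 libraries and had to differ. The remaining 26 lay in between. At the recovered depth, 30 genes had at most 3 reads in every 2x nrpd1 library, and in 16 of these all 2x nrpd1 libraries were listed at 0. At the other end, 18 genes averaged at least 100 RPKM in 3x nrpd1. Another annotated gene overlapped 27 of the 159, and the reads carry no strand, so reads of such pairs cannot be assigned to one of them with certainty.

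How many genes were called depended on the libraries. Without 1 of the 2x nrpd1 libraries the number called higher was 53, 33 and 31 for replicates 1, 2 and 3. Without 3x nrpd1 replicate 1 or replicate 2 it was 13 each time, and without 3x nrpd1 replicate 3 it was 197 of 17369 (1.13%), with 19 genes called lower (0.109%). Of the 159 genes, 117 could still be tested when 1 of the 3x nrpd1 libraries was left out, and 116 of those 117 were called without replicate 3. All of the 159 that could be tested kept a positive fold change in each of these 6 fits. As their libraries did not overlap between the groups, leaving out 1 could hardly change the sign. The 159 genes were shorter than all genes tested (median exon length 1060 against 1779 bases), in the direction in which 3x nrpd1 replicate 3 differed from the other libraries, and 147 of them were called after the exon-length trend was removed. The 10 genes called in all 6 fits were SESA3, AGP24, ICL, LTP3, PAP85, AT3G16895, GRP-3, AT3G63040, AKR4C8 and AT2G28490, and 18 were called in at least 4.

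**Figure D1:**
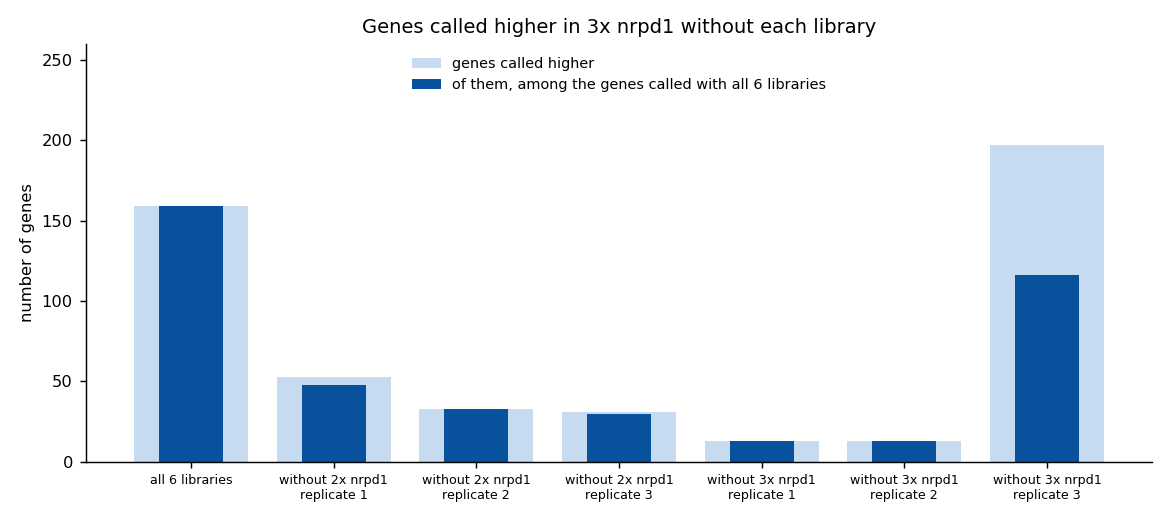
Number of genes called higher in 3x nrpd1 than in 2x nrpd1 (y axis, genes) with all 6 libraries and with each library left out (x axis), as light bars, and how many of them are among the 159 genes called with all 6 libraries, as dark bars. The count is 13 without 3x nrpd1 replicate 1 or 2, and 197 without replicate 3.

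Seed storage proteins were the list with the largest median change. These are the 2S albumins, encoded by SESA1 to SESA5, and the 12S and 7S globulins, which fill the protein bodies of the maturing embryo and feed the seedling. Of 10 such genes 9 were tested, 5 rose and 0 fell, and the median log2 fold change of the 9 was 3.11 against -0.02 for all genes tested, with 5 of 9 to be read against 0.904%. The summed level of the list was 255, 561 and 537 RPKM in the 2x nrpd1 libraries and 1850, 2080 and 2270 RPKM in the 3x nrpd1 libraries, a ratio of means of 4.58. All 3 of the triploid libraries lay far above the diploid ones, and the lowest diploid library was replicate 1. In the wt libraries the corresponding ratio was 61.9, from 542, 434 and 506 RPKM to 21100, 31300 and 39300 RPKM, so that the level in 3x nrpd1 was many times below that in 3x wt. Without 1 library the number called was from 2 to 8, and it was 8 without 3x nrpd1 replicate 3.

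SESA3 (AT4G27160, TAIR10.1 chromosome 4, 13611796 to 13612563, plus strand) had 36.3, 79.9 and 55.7 RPKM in 2x nrpd1 and 686, 669 and 850 RPKM in 3x nrpd1. The groups did not overlap, and the log2 fold change was 3.86 (SE 0.33, limma adjusted p = 0.00611). SESA4 (AT4G27170, chromosome 4, 13613596 to 13614283, plus strand) went from 1.68, 5.98 and 4.26 RPKM to 52.1, 42.2 and 63.1 RPKM. Its log2 fold change was 3.80 (SE 0.42, adjusted p = 0.0108), at a level about an order of magnitude under its neighbour's. SESA2 had 28.5, 60.3 and 73.8 RPKM in 2x nrpd1 and 250, 296 and 332 RPKM in 3x nrpd1 (log2 fold change 2.65, SE 0.37, adjusted p = 0.0229). These 3 genes stand side by side on chromosome 4 and formed the longest run of called genes within 10000 bases of each other. SESA5, on chromosome 5, had 2.03, 3.63 and 7.62 RPKM against 23.6, 25.9 and 36.0 RPKM (log2 fold change 2.82, SE 0.43, adjusted p = 0.0323). SESA1 had the highest diploid level of the 5 albumins and was not called. It measured 87.1, 169 and 206 RPKM in 2x nrpd1 and 321, 395 and 545 RPKM in 3x nrpd1 (log2 fold change 1.63, SE 0.40, adjusted p = 0.144), and the groups did not overlap.

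The globulins were called less uniformly. PAP85, a vicilin-like 7S globulin, had 1.12, 2.35 and 1.84 RPKM in 2x nrpd1 and 28.4, 31.9 and 16.3 RPKM in 3x nrpd1, a log2 fold change of 3.61 (SE 0.27, adjusted p = 0.00382), and it was called without any 1 library. The 12S globulins CRA1, CRB and CRC (cruciferins) were not called with all 6 libraries and were called without 3x nrpd1 replicate 3. CRA1 had 96.4, 229 and 175 RPKM against 430, 527 and 380 RPKM, with an adjusted p of 0.0813 with all libraries and 0.0424 without replicate 3. CRB had 0.326, 3.42 and 3.44 RPKM against 16.5, 28.1 and 17.8 RPKM (adjusted p = 0.055, and 0.0426 without replicate 3). CRC had 1.58, 7.89 and 8.08 RPKM against 41.5, 66.7 and 26.1 RPKM (adjusted p = 0.0534, and 0.0288 without replicate 3). In each of the 3 cruciferins the 2x nrpd1 replicate 1 was the lowest library. AT2G28490, annotated as a cupin, the fold that globulins share, had a narrow spread, with 15.3, 14.3 and 17.6 RPKM against 57.4, 62.2 and 54.6 RPKM (log2 fold change 1.98, SE 0.15, adjusted p = 0.00382).

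Oil bodies are the droplets in which embryo cells store triacylglycerol, and oleosins coat their surface and keep them from fusing. Of 10 oil body genes 7 were tested, 3 rose (OLEO1, OLEO4 and AT3G01570) and 0 fell, and the 7 had a median log2 fold change of 1.57. The list summed to 2360, 2600 and 2210 RPKM in 2x nrpd1 and to 5860, 5430 and 7950 RPKM in 3x nrpd1. The triploid libraries all lay above the diploid ones, with replicate 3 the highest. The 3 of 7 stand against 0.904% of all genes tested, and with 1 library left out the number called was from 0 (without 2x nrpd1 replicate 1) to 5 (without 3x nrpd1 replicate 3). OLEO1 (AT4G25140, chromosome 4, 12900430 to 12901577, plus strand, overlapping AT4G25150) had 386, 434 and 372 RPKM against 1310, 1310 and 1650 RPKM, a log2 fold change of 1.97 (SE 0.27, adjusted p = 0.0211). AT3G01570, an oleosin family gene that overlaps AT3G01560, had 157, 238 and 164 RPKM against 816, 755 and 1090 RPKM (log2 fold change 2.39, SE 0.30, adjusted p = 0.0168). OLEO4 had 232, 259 and 233 RPKM against 615, 547 and 702 RPKM (log2 fold change 1.49, SE 0.24, adjusted p = 0.035). The summed level of the oil body genes in diploid embryos was thus higher than that of the storage proteins, and their fold changes were smaller.

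OLEO2 and the caleosin CLO1, a calcium-binding oil body protein, were called only without 3x nrpd1 replicate 3, which was the highest library in both. OLEO2 had 411, 454 and 358 RPKM against 969, 904 and 1520 RPKM (adjusted p = 0.098, and 0.00353 without replicate 3). CLO1 had 2.92, 3.04 and 2.98 RPKM against 8.76, 11.2 and 19.1 RPKM (adjusted p = 0.0515, and 0.00495 without replicate 3). Among all 13 genes annotated as oleosins, a grouping made after the values were seen, 11 were tested and 5 were called higher (against 0.904% of all genes), or from 0 to 6 with 1 library left out. The other 2 were AT1G48990, with 105, 102 and 109 RPKM against 222, 220 and 178 RPKM (log2 fold change 1.09, SE 0.14, adjusted p = 0.0177), and AT3G18570, with 48.2, 53.1 and 54.8 RPKM against 132, 138 and 130 RPKM (log2 fold change 1.48, SE 0.16, adjusted p = 0.00987).

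**Figure D2:**
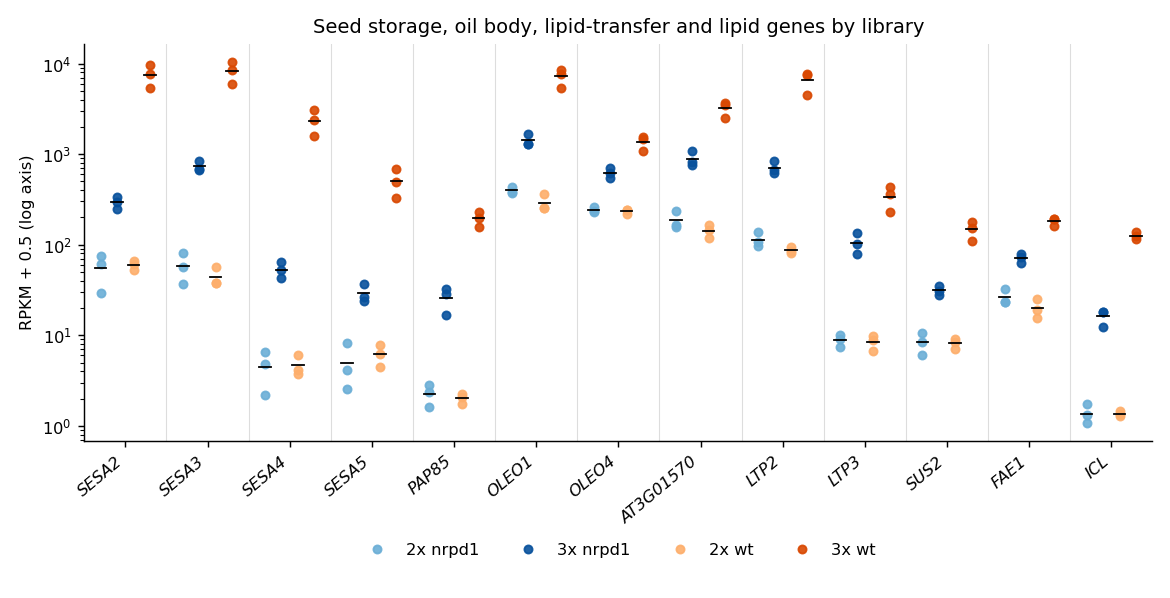
RPKM + 0.5 (y axis, log scale) of 13 seed storage, oil body, lipid-transfer and lipid genes (x axis) in each library of the 4 groups; points are libraries and black bars the mean of the 3 libraries of a group. For each gene the 3x nrpd1 libraries lie above all 2x libraries and below all 3x wt libraries, and SESA3, for example, spans 669 to 850 RPKM in 3x nrpd1.

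The 250 bases upstream of the annotated start are shown for 3 of these genes, because the letters CATGCA (the RY element that B3-type maturation regulators bind) and ACGTG (the core of the ABA-responsive element) recur in them, and for MEO and AGP24, called genes described further on in which they are scarce. The sequence is that of TAIR10.1 (RefSeq), 5′ to 3′ on the strand of the gene. Capitals mark matches to CATGCA or ACGTG on either strand. The windows are chr4:13611546-13611795 for SESA3, chr4:13613346-13613595 for SESA4 and chr4:12900180-12900429 for OLEO1, all on the plus strand, chr2:8700187-8700436 on the minus strand for MEO and chr5:16300822-16301071 on the plus strand for AGP24.
SESA3: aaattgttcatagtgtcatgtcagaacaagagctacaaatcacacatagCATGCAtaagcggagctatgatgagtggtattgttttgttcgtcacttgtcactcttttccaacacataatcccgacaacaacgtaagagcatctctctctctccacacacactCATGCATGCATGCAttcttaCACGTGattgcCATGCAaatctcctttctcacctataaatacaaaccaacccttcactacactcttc
SESA4: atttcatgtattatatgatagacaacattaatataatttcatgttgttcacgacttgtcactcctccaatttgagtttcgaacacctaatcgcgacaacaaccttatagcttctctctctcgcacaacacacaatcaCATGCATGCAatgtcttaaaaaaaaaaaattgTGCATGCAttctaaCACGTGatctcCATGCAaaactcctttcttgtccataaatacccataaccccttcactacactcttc
OLEO1: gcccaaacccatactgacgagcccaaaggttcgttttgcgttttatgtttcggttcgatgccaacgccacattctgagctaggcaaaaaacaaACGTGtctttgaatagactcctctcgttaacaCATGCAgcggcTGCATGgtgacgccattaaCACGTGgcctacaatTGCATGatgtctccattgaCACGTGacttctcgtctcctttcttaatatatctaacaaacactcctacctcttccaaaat
MEO: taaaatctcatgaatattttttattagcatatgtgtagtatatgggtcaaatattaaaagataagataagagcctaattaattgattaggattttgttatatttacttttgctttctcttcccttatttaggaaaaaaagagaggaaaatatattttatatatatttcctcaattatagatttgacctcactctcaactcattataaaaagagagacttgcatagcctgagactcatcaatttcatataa
AGP24: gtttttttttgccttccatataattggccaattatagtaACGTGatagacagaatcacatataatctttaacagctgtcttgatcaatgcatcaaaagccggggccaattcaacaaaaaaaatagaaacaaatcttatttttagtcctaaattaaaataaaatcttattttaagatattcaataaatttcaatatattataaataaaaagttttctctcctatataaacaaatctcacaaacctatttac
The SESA3 window held 7 matches to CATGCA and 2 to ACGTG, the SESA4 window 6 and 2, and the OLEO1 window 3 and 5, where overlapping matches and both strands of the palindrome CACGTG each count. The MEO window held 0 of either and the AGP24 window 0 and 1. In SESA3 and SESA4 the matches nearest to the gene began 56 bases before its start, with CACGTG just upstream of them. These are matches of letters, not binding sites.

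Over all 159 called genes, 38 windows held CATGCA (23.9%) and 56 held ACGTG (35.2%), against 7.27% and 23.1% of the 17506 tested genes that have a window. All 8 called genes of the storage and oil body lists held CATGCA and 6 held ACGTG (75%). Among the 42 called genes whose change was larger with wt pollen (described below), 22 held CATGCA (52.4%) and 25 held ACGTG (59.5%), and among the other 117 the shares were 13.7% and 26.5%. Of 12 called genes in the families of small cysteine-rich and self-incompatibility peptides, 1 held CATGCA and 1 held ACGTG, or 8.33% each.

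Lipid-transfer proteins, small secreted proteins that bind lipids and are abundant in epidermis, were among the most abundant transcripts called. LTP2 had 106, 136 and 96.9 RPKM in 2x nrpd1 and 672, 621 and 837 RPKM in 3x nrpd1, a rise of 2.78 on the log2 scale (SE 0.26, limma adjusted p = 0.00776). LTP3 had 8.60, 6.91 and 9.64 RPKM against 78.6, 101 and 134 RPKM, a log2 fold change of 3.67 (SE 0.28, adjusted p = 0.00382). AT1G62500, of the same protein superfamily, had the highest level of all called genes, with 259, 538 and 361 RPKM against 1610, 1400 and 1350 RPKM (log2 fold change 2.10, SE 0.31, adjusted p = 0.0281). In none of the 3 did the groups overlap. A family chosen after its values were seen held 133 genes annotated as lipid-transfer proteins or in the superfamily these share with 2S albumins. Of these, 48 were tested and 6 were called higher (12.5%, against 0.904% of all genes). With 1 library left out, from 2 (without 3x nrpd1 replicate 1) to 5 were called. In 2x nrpd1, 95 of the 133 averaged under 1 RPKM. These could pass the filter only with 3x nrpd1 libraries at 1 RPKM or more, which favours calls. The sum of the family was 4150, 4890 and 4700 RPKM in the diploid and 9120, 7760 and 11500 RPKM in the triploid libraries.

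Genes of lipid and sugar metabolism followed. ICL (isocitrate lyase, AT3G21720, chromosome 3, 7652487 to 7656053, minus strand), a glyoxylate cycle enzyme that lets cells turn fatty acids into sugars, had 0.572, 1.22 and 0.810 RPKM in 2x nrpd1 and 17.7, 17.7 and 11.8 RPKM in 3x nrpd1. Its log2 fold change was 3.67 (SE 0.23, adjusted p = 0.00382). Of 12 genes of seed oil synthesis 11 were tested, 2 rose (against 0.904% of all genes) and 0 fell (from 0, without 2x nrpd1 replicate 1, to 2 with 1 library left out), and the median log2 fold change was 0.30. The 2 were SUS2, a sucrose synthase that provides carbon for oil in seeds, with 8.03, 10.1 and 5.51 RPKM against 34.7, 30.6 and 27.4 RPKM (log2 fold change 2.06, SE 0.23, adjusted p = 0.0108), and FAE1, which elongates fatty acids to the very long chains of seed oil, with 22.8, 32.2 and 22.8 RPKM against 78.2, 71.9 and 61.8 RPKM (log2 fold change 1.57, SE 0.18, adjusted p = 0.012). In both genes the highest diploid library, replicate 2, lay below the lowest triploid one.

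The regulators and the desiccation genes of seed maturation moved less. A count of 0 in lists of this size is near the 0.904% called higher among all genes tested. Of 18 maturation regulators, all tested, 0 were called by limma (4 higher and 0 lower at an unadjusted p under 0.05), and their median log2 fold change was 0.09. L1L, a LEC1-like transcription factor subunit, had 196, 231 and 153 RPKM against 407, 338 and 394 RPKM (log2 fold change 1.12, adjusted p = 0.0988), and passed without 3x nrpd1 replicate 3 (adjusted p = 0.0305). Of 28 genes of LEA and other dehydration proteins, which protect cells from drying, 16 were tested, 0 were called (8 higher and 0 lower at an unadjusted p under 0.05), and the median log2 fold change was 0.58 against 2.52 in the wt comparison. Their sums were 230, 242 and 435 RPKM in 2x nrpd1 and 321, 370 and 470 RPKM in 3x nrpd1, so that the groups overlapped. Outside the list, 1 LEA gene was called: AtLEA4-1 had 27.9, 35.7 and 36.7 RPKM against 72.7, 72.1 and 67.4 RPKM (log2 fold change 1.21, SE 0.17, adjusted p = 0.0229). Of the genes that make and break down abscisic acid (ABA), the hormone of dormancy and drought, 8 of 16 were tested and 0 called (2 higher at an unadjusted p under 0.05, median 0.30), and 1 was called without 3x nrpd1 replicate 3. Of 33 genes of ABA perception and signaling 24 were tested and 0 called (3 higher and 0 lower at an unadjusted p under 0.05, median 0.02), and 1 was called lower without 3x nrpd1 replicate 3.

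Other embryo genes named after their values were seen belong here. ATS3, an embryo-specific gene, had 41.2, 45.6 and 39.6 RPKM against 117, 129 and 137 RPKM (log2 fold change 1.71, SE 0.19, adjusted p = 0.0108). PEI1, a zinc finger gene of the embryo, had 24.1, 32.7 and 31.9 RPKM against 72.8, 73.3 and 76.8 RPKM (log2 fold change 1.46, SE 0.19, adjusted p = 0.0206). GA20OX3, which makes gibberellin, the hormone that promotes growth, had 21.8, 17.4 and 19.3 RPKM against 41.6, 55.5 and 33.3 RPKM (log2 fold change 1.24, adjusted p = 0.0208). FLC, the MADS-box repressor of flowering that is reset in the embryo, had 10.7, 11.1 and 13.0 RPKM against 29.6, 23.1 and 27.7 RPKM (log2 fold change 1.30, adjusted p = 0.0281). In all 4 genes the diploid libraries lay below every triploid one. AT3G63040, an uncharacterized gene that overlaps AT3G63030, had a larger difference, with 34.7, 45.5 and 35.1 RPKM against 283, 286 and 365 RPKM (log2 fold change 3.13).

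Another set of called genes was nearly silent in diploid embryos. The 42 genes with under 1 RPKM in each 2x nrpd1 library had a median log2 fold change of 3.0, and in 30 of them 3x nrpd1 replicate 2 was the highest of the 3 triploid libraries, which it was in 45 of the other 117. The largest change of all was that of AT1G21395 (uncharacterized, chromosome 1, 7491965 to 7492351, plus strand), with 1.42, 0 and 0 RPKM in 2x nrpd1 and 16.1, 51.6 and 19.7 RPKM in 3x nrpd1 (log2 fold change 5.12, SE 0.59, adjusted p = 0.012). AT1G48195, annotated as a zinc finger gene and overlapping AT1G48200, had 0.592, 0.327 and 0 RPKM against 12.3, 34.8 and 12.4 RPKM (log2 fold change 4.62, SE 0.43, adjusted p = 0.00776). In both genes replicate 2 stood well above the other triploid libraries. The uncharacterized genes AT1G72580 (log2 fold change 4.02), AT2G19802 (3.88), AT3G49307 (3.79) and AT1G62070 (3.79), and AT3G11930 (3.76), an adenine nucleotide alpha hydrolase-like gene, were among the 15 largest changes too. AT1G21395, AT2G19802, AT3G49307 and AT3G11930 reached 1 RPKM in a 2x nrpd1 library and so are not among the 42.

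SKP1-like proteins are the adaptor subunits of SCF ubiquitin ligases, which mark proteins for breakdown. MEO (AT2G20160, chromosome 2, 8699511 to 8700186, minus strand), whose upstream window is shown above, was listed at 0 in all 2x nrpd1 and 2x wt libraries and had 6.28, 13.1 and 9.52 RPKM in 3x nrpd1. With 3 reads per diploid library as the floor it was at least 23.3-fold higher (log2 fold change 4.33 with the pseudocount, SE 0.32, adjusted p = 0.00382). In 3x wt it had 14.9, 8.73 and 4.51 RPKM, which overlaps the 3x nrpd1 range. SK16 was listed at 0 in each 2x nrpd1 library and had 2.88, 10.8 and 4.05 RPKM in 3x nrpd1, at least 14.6-fold higher (adjusted p = 0.0154). SK3 had 0.484, 0 and 0 RPKM against 3.76, 12.7 and 5.12 RPKM (log2 fold change 3.50, adjusted p = 0.0204). These were 3 of 15 SKP1-like genes tested (against 0.904% of all genes, and from 0 to 2 called with 1 library left out), of 27 measured. All 3 were under 1 RPKM in each 2x nrpd1 library, so they could enter the test only through 3x nrpd1 and had to differ. The sum of the family (430, 428 and 428 against 416, 457 and 565 RPKM) overlapped between the groups. SKP1-like genes are alike in sequence, and reads can be shared between copies.

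Cysteine-rich and defensin-like peptides are short proteins held by disulfide bonds, and several are known as signals in plant reproduction. Of 209 such genes 25 were tested and 9 were called higher (36%, against 0.904% of all genes). The family was chosen after its values were seen. With 1 library left out, the number called was from 1 (without 2x nrpd1 replicate 3) to 8. In 2x nrpd1, 199 of the 209 averaged under 1 RPKM. These could pass the filter only with 3x nrpd1 libraries at 1 RPKM or more. That selection favours calls, so the share is a description. The sum of the family was 225, 192 and 310 RPKM in 2x nrpd1 and 376, 480 and 554 RPKM in 3x nrpd1. LCR73, which overlaps AT2G02148, had 1.46, 0 and 0.482 RPKM against 18.4, 30.0 and 13.2 RPKM (log2 fold change 4.42, SE 0.47, adjusted p = 0.00998). AT3G16895 had 1.02, 1.02 and 1.35 RPKM against 9.73, 24.9 and 12.5 RPKM (log2 fold change 3.31) and was one of the genes called without any 1 library. LCR41 was listed at 0 in 2x nrpd1 and had 2.45, 4.95 and 2.26 RPKM in 3x nrpd1, at least 2.83-fold higher. Of 113 thionins and self-incompatibility peptides 7 were tested and 3 were called higher (against 0.904% of all genes). With 1 library left out, from 0 to 3 were called. The same selection holds for these peptides, of which 111 of the 113 averaged under 1 RPKM in 2x nrpd1. Their sums were 14.0, 9.47 and 10.2 RPKM in 2x nrpd1 against 34.8, 46.7 and 49.0 RPKM in 3x nrpd1.

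Further low genes code for cell surface proteins and transcription factors. AGP24 (AT5G40730, chromosome 5, 16301072 to 16301748, plus strand), an arabinogalactan protein of the cell surface, had 1.99, 0.824 and 1.58 RPKM in 2x nrpd1 and 17.0, 36.1 and 22.8 RPKM in 3x nrpd1 (log2 fold change 3.80, SE 0.33, adjusted p = 0.00611). In 3x wt it had 32.9, 25.1 and 16.4 RPKM, again within the range of 3x nrpd1. DOF4.5, a Dof zinc finger gene, was listed at 0 in 2x nrpd1 and had 2.87, 12.4 and 3.71 RPKM in 3x nrpd1, at least 17.0-fold higher, and the related DOF4.3 was called as well (log2 fold change 2.84, adjusted p = 0.049). The neighbouring MADS-box genes AT1G59920 (log2 fold change 2.72) and AT1G59930 (3.20) were called together, at 4.32 to 7.12 RPKM and 3.46 to 11.5 RPKM in 3x nrpd1.

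Markers of another tissue have their values beside these genes. PHE1, an imprinted MADS-box gene of the endosperm expressed from the paternal copy, was listed at 0 in all 2x nrpd1 and all 2x wt libraries and had 1.03, 3.70 and 0.994 RPKM in 3x nrpd1 and 1.22, 1.96 and 1.56 RPKM in 3x wt. At the recovered depth this is 8 to 30 reads in the 3x nrpd1 libraries and at least 7.37-fold above the floor. It was under the filter and was not tested. The highest library was replicate 2, as in most of the 42 low genes. Of the 16 endosperm markers 11 averaged under 1 RPKM in 3x nrpd1 and 13 in 2x nrpd1. Listed at 0 in every library of the group were 7 of the 16 in 2x nrpd1 and 2 in 3x nrpd1. Over all 33602 genes these counts were 10240 and 10572. The part that remaining endosperm has in these low genes was not tested.

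**Figure D3:**
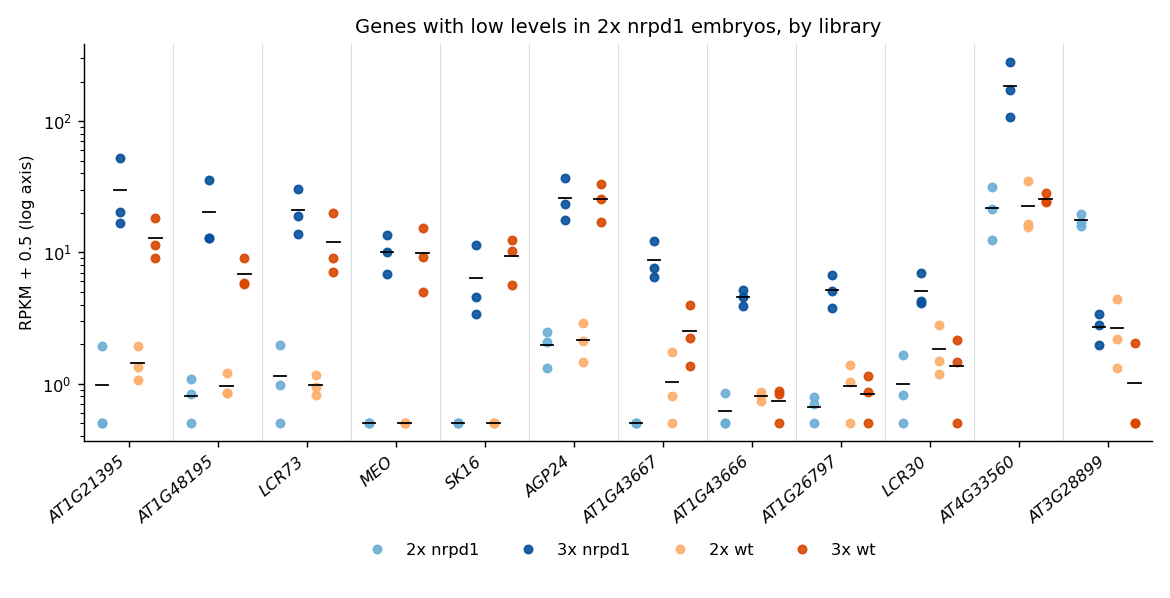
RPKM + 0.5 (y axis, log scale) of 12 genes (x axis) in each library of the 4 groups; points are libraries and black bars the mean of the 3 libraries of a group, and a point at 0.5 is a library listed at 0. In 11 genes the 3x nrpd1 libraries lie above all 2x nrpd1 libraries, MEO and AGP24 reach like levels in 3x wt, AT1G43666, AT1G26797 and AT4G33560 do not, and AT3G28899 has its highest level in 2x nrpd1.

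In the response to low oxygen, fermentation enzymes and other hypoxia genes are switched on to keep glycolysis running. Of 16 hypoxia genes 14 were tested, 1 rose and 0 fell (8 higher at an unadjusted p under 0.05), and their median log2 fold change was 0.64 against 0.70 in the wt comparison, while the ratio of their summed levels was 3.83 against 1.88. PDC1, pyruvate decarboxylase, had 47.3, 47.4 and 37.3 RPKM against 100, 117 and 83.7 RPKM (log2 fold change 1.30, SE 0.16, limma adjusted p = 0.0154). ADH1, alcohol dehydrogenase, which takes the next step, had 42.9, 51.4 and 33.8 RPKM against 107, 72.9 and 117 RPKM (adjusted p = 0.102, and 0.0405 without 3x nrpd1 replicate 3). SAD6, a stearoyl-ACP desaturase induced by hypoxia, dominated the list with 353, 595 and 163 RPKM against 1790, 1280 and 2690 RPKM (log2 fold change 2.63, adjusted p = 0.0911, and 0.0488 without replicate 3). The triploid libraries lay above the diploid ones in each of these genes. The 1 of 14 stands against 0.904% of all genes, and with 1 library left out the list had from 0 (without 2x nrpd1 replicate 1) to 3 genes called (without 3x nrpd1 replicate 3).

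Flavonoids are the pigments and antioxidants made from phenylalanine. Of 9 flavonoid genes 5 were tested, 1 rose (against 0.904% of all genes) and 0 fell (5 higher at an unadjusted p under 0.05). Their median log2 fold change was 1.16, and with 1 library left out from 0 (without 2x nrpd1 replicate 1) to 2 were called. The sum was 182, 212 and 116 RPKM in 2x nrpd1 and 403, 349 and 346 RPKM in 3x nrpd1. The called gene was TT7, flavonoid 3'-hydroxylase, with 12.8, 14.1 and 11.3 RPKM against 55.1, 56.5 and 22.1 RPKM (log2 fold change 1.78, SE 0.28, adjusted p = 0.0325). CHS, chalcone synthase, the entry enzyme, had 72.0, 81.9 and 43.9 RPKM against 176, 140 and 178 RPKM (adjusted p = 0.0734, and 0.0375 without 3x nrpd1 replicate 3). Genes of the pathway outside the list, named after their values were seen, were also called. CHIL, a chalcone isomerase-like protein, had 6.62, 8.40 and 5.11 RPKM against 27.6, 27.4 and 22.0 RPKM (log2 fold change 2.00, SE 0.20, adjusted p = 0.00776). PAL4, phenylalanine ammonia-lyase, had 18.4, 21.6 and 24.1 RPKM against 62.8, 84.4 and 41.9 RPKM (log2 fold change 1.62, SE 0.20, adjusted p = 0.0163), and CYP98A3, of the same phenylpropanoid route, had a log2 fold change of 1.37 (adjusted p = 0.0427).

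Single enzymes and a glycine-rich protein, also named after their values were seen, were called as well. AKR4C8, an aldo-keto reductase, had 4.72, 5.66 and 5.68 RPKM in 2x nrpd1 and 24.4, 23.3 and 23.4 RPKM in 3x nrpd1 (log2 fold change 2.17, SE 0.17, adjusted p = 0.00413). GRP-3, a glycine-rich protein, had 0.732, 0.404 and 1.29 RPKM against 10.1, 11.1 and 9.18 RPKM (log2 fold change 3.17, SE 0.27, adjusted p = 0.00611). NIT4, a nitrilase that detoxifies cyanide, had 1.66, 1.94 and 0.732 RPKM against 12.9, 12.8 and 11.0 RPKM (log2 fold change 2.87, SE 0.28, adjusted p = 0.00776). The 3 triploid libraries differed little in each of these genes.

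In 31 nuclear photosynthesis genes, all tested, the log2 fold change was positive in every one, from 0.41 to 1.27 with a median of 0.58, but 0 were called by limma (14 higher and 0 lower at an unadjusted p under 0.05). The sum was 26500, 30000 and 24200 RPKM in 2x nrpd1 and 36900, 33100 and 54700 RPKM in 3x nrpd1, with replicate 3 far above the other libraries, and without it the median was 0.40. Lhca5, a photosystem I antenna gene outside the list, was called (log2 fold change 1.15). Lists of growth and patterning had no called gene, which for lists of this size is near the 0.904% called higher among all genes. Of 22 cell division and DNA replication genes tested, 0 were called (0 at an unadjusted p under 0.05, median -0.11). Of 20 tested patterning genes 0 were called (0 higher and 2 lower at an unadjusted p under 0.05, median -0.24), with sums of 643, 605 and 517 RPKM against 595, 576 and 299 RPKM, and the median was -0.02 without replicate 3. Of 18 genes of Pol IV and RNA-directed DNA methylation 0 were called (0 at an unadjusted p under 0.05, median -0.32), and the median was -0.01 without replicate 3. In both lists replicate 3 was the lowest library.

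The remaining lists had no called gene either, again near the share of 0.904% over all genes for lists this short. Of 9 heat shock genes tested 0 were called (0 at an unadjusted p under 0.05), with a median of 0.11 against 2.84 in the wt comparison, and their sum was 120, 170 and 870 RPKM in 2x nrpd1 and 178, 572 and 332 RPKM in 3x nrpd1. Of 10 clock genes tested 0 were called (2 higher and 3 lower at an unadjusted p under 0.05). PRR5, a clock repressor, had the lowest value, with 3.42, 3.97 and 13.1 RPKM against 1.07, 0.539 and 0.925 RPKM (log2 fold change -2.12, adjusted p = 0.118). Of 9 iron genes tested 0 were called (3 higher and 0 lower at an unadjusted p under 0.05), and of 2 galactinol and raffinose synthesis genes tested 0 were called (0 at an unadjusted p under 0.05).

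**Figure D4:**
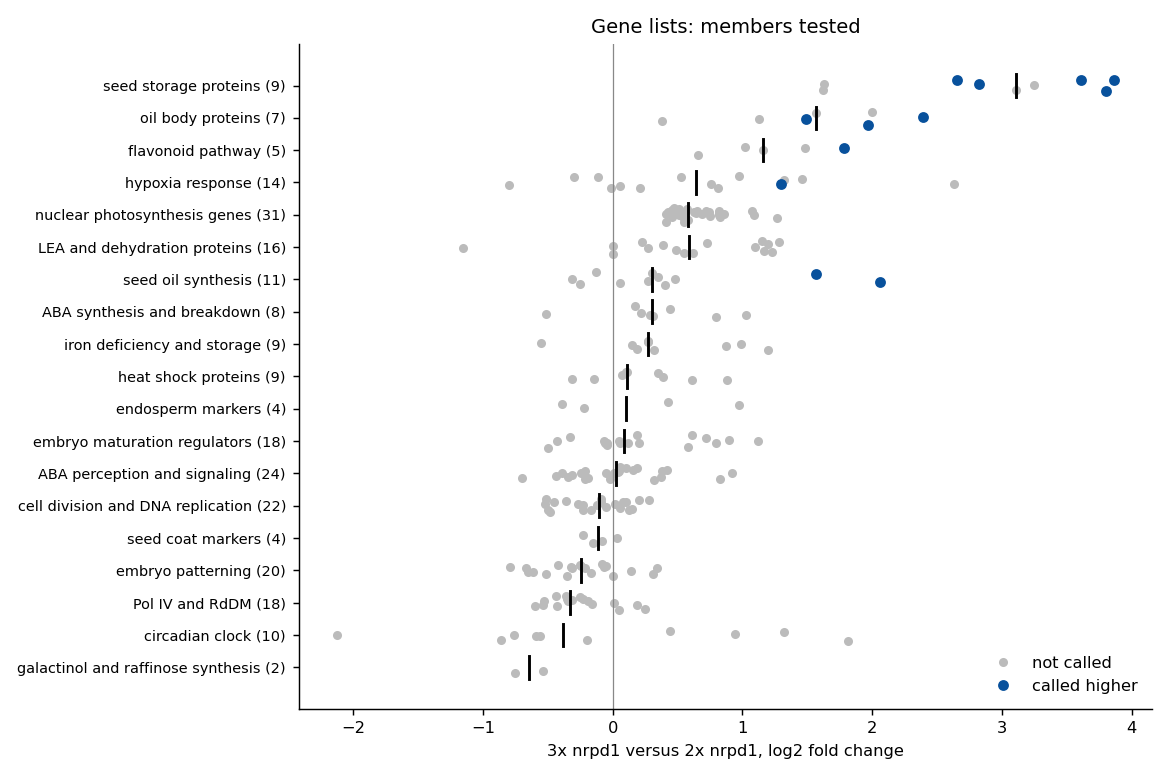
Log2 fold change of 3x nrpd1 versus 2x nrpd1 (x axis) for the tested members of 19 gene lists (y axis, number tested in brackets); grey points were not called, blue points were called higher, and black bars are medians. Storage proteins have the largest median (3.11), all 31 photosynthesis genes lie above 0, and the 12 called genes belong to 5 lists.

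Of the 3 genes that fell, 1 had a level well above the floor. AT3G28899 (uncharacterized, chromosome 3, 10902184 to 10902515, plus strand, overlapping AT3G28900) had 16.4, 19.1 and 15.5 RPKM in 2x nrpd1 and 2.28, 2.86 and 1.47 RPKM in 3x nrpd1, a log2 fold change of -2.61 (SE 0.20, adjusted p = 0.00382), and it was called without any 1 library. Its level in 2x wt was 1.68, 0.812 and 3.92 RPKM, close to that of 3x nrpd1. By level 2x nrpd1 was thus the group that stood apart, although limma called 0 genes in 2x nrpd1 versus 2x wt. The others were the snoRNA genes AT3G58193 (1.11, 1.84 and 1.46 RPKM against 0 in each 3x nrpd1 library, adjusted p = 0.0442) and AT4G03295 (1.17, 1.93 and 3.08 RPKM against 0, adjusted p = 0.0397). At the recovered depth these rest on 1 or 2 reads per diploid library in a poly(A)-selected preparation, and both groups are under the floor of 3 reads.

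The change in the nrpd1 comparison was set against that in the wt comparison with an interaction term over all 12 libraries, in which the signed log2 change was higher with wt pollen for 988 of 18561 genes (5.32%) and higher with nrpd1 pollen for 515 (2.77%), where a higher change can also be a smaller fall. The 159 genes were chosen on the nrpd1 libraries that enter this term, so their counts are a description. The change was larger with wt pollen in 42 of them, larger with nrpd1 pollen in 13, and the difference was not called in 104. Of the 143 that were tested in wt, 135 were also called higher in 3x wt versus 2x wt, as were 11.1% of all genes tested there. The mean of 3x wt was above that of 2x wt in 152 of the 159, a share not computed over all genes.

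The 42 genes with a larger change in wt included all 8 called storage and oil body genes, beside genes of other kinds such as FLC and PAL4. The interaction, as the log2 change with wt pollen minus that with nrpd1 pollen, was 5.30 in SESA4, 4.46 in SESA2, 3.85 in SESA3, 3.66 in SESA5 and 3.60 in LTP2, the largest values among the called genes. In 3x wt SESA4 reached 1570, 2410 and 3060 RPKM and SESA3 reached 5990, 8580 and 10400 RPKM, with no overlap with 3x nrpd1. Interactions were smaller but still called in ICL (2.99), where 3x wt had 115, 125 and 137 RPKM, in OLEO1 (2.84), SUS2 (2.25), FAE1 (1.80), LTP3 (1.78), FLC (1.49) and OLEO4 (1.21). In all of these genes the 3x nrpd1 level lay between the diploid and the 3x wt level. The fermentation gene PDC1 (interaction 0.17) and the abundant AT1G62500 of the lipid-transfer and 2S albumin superfamily (0.59) were not called in this term.

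Most low genes had no called interaction. It was -0.12 each for MEO and for AGP24, of which AGP24 is not among the 42. In the 42 genes under 1 RPKM in each 2x nrpd1 library, the change was larger with wt pollen in 1 and larger with nrpd1 pollen in 7, and the mean of 3x wt was below that of 3x nrpd1 in 29. The medians of the group means were 4.68 RPKM in 3x nrpd1 and 2.66 RPKM in 3x wt. These 42 genes could enter only through high 3x nrpd1 libraries. That selection favours 3x nrpd1 over 3x wt, so these values are a description. In the other 117 genes the change was larger with wt pollen in 41 and larger with nrpd1 pollen in 6, with medians of 24.3 RPKM in 3x nrpd1 and 38.6 RPKM in 3x wt.

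In 68 of the 159 genes the mean of 3x nrpd1 was above that of 3x wt, and in 34 every 3x nrpd1 library lay above every library of the other 3 groups. The 159 were chosen for high 3x nrpd1 levels, and the shares over all genes tested were not computed, so both counts are descriptions. Of these genes, those described here had the interaction called with a higher change with nrpd1 pollen. AT4G33560, annotated as wound-responsive, had 21.0, 30.8 and 11.8 RPKM in 2x nrpd1, 171, 106 and 281 RPKM in 3x nrpd1 and 27.7, 24.3 and 23.5 RPKM in 3x wt. Its log2 fold change was 3.22 (SE 0.49, adjusted p = 0.0306) and its interaction -2.76 (adjusted p = 0.0147). AT1G43667 and AT1G43666 are neighbours on chromosome 1 and both are annotated in the lipid-transfer and 2S albumin superfamily. AT1G43667 was listed at 0 in 2x nrpd1 and had 7.10, 11.7 and 6.00 RPKM in 3x nrpd1, at least 15.1-fold higher, with an interaction of -2.67 (adjusted p = 0.0149). AT1G43666 had 0, 0 and 0.354 RPKM in 2x nrpd1, 3.38, 4.08 and 4.62 RPKM in 3x nrpd1 and at most 0.385 RPKM in 3x wt, with an interaction of -3.09. The self-incompatibility peptide gene AT1G26797 had 0.293, 0 and 0.193 RPKM against 3.27, 6.25 and 4.59 RPKM (interaction -3.15) and at most 0.632 RPKM in 3x wt.

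The cysteine-rich peptide genes LCR30 (1.15, 0.318 and 0 RPKM against 3.73, 6.44 and 3.61 RPKM, interaction -3.03) and AT5G19175 (2.14, 0.295 and 1.41 RPKM against 7.27, 10.3 and 9.50 RPKM, interaction -2.66) belonged to the same set. MIR833a, a microRNA precursor that overlaps other annotated genes, had the interaction of largest size in this direction (-3.55), on 2 to 7 reads per 3x nrpd1 library, and its 3x nrpd1 and 3x wt libraries overlapped. In AT3G49307 the interaction of -2.87 was not called (adjusted p = 0.0502).

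**Figure D5:**
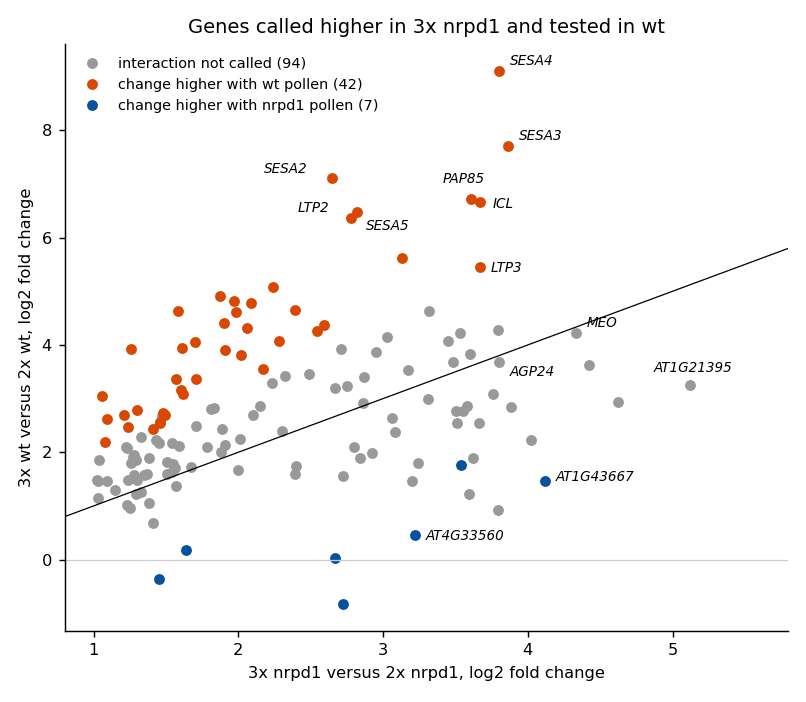
Log2 fold change of 3x wt versus 2x wt (y axis) against that of 3x nrpd1 versus 2x nrpd1 (x axis) for the 143 genes called higher in 3x nrpd1 and tested in wt; the diagonal marks equal changes and colours mark the interaction. The 42 genes with a larger change with wt pollen lie above the diagonal with the SESA genes on top, and 7 with a larger change with nrpd1 pollen lie below it.

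The called genes were spread over the genome, with 46, 25, 28, 23 and 37 on chromosomes 1 to 5. Of the 159, 25 lay within 10000 bases of another, in 12 runs, of which SESA2, SESA3 and SESA4 formed the only one of 3.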

How the data were processed

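The 12 libraries, 3 per group, hold poly(A) RNA of dissected embryos and took their group and replicate from the labels. According to the study's methods the authors used Trimmomatic on the paired reads, TopHat2 for mapping to TAIR10 without its rRNA genes and GFOLD for read counts per gene. The deposited values are RPKM of 33602 genes per library, computed by the authors from those counts with a total that is not given in the sources used here. RPKM hide the read number behind a value, so depth was recovered from the steps between low RPKM of the 32827 genes with an exon length in TAIR10.1 (RefSeq). Between 34.2% and 43.4% of low values came out within 0.02 of a whole read, and why the others did not was not tested. Read numbers per gene are therefore approximate. Over the 12 libraries depth was 6851604 to 13602763 reads, at which 3 reads on a gene of 1000 bases are worth 0.221 to 0.438 RPKM. The study lists more mapped reads for each library. The search covered only totals below these, so it could not have returned them. Read numbers, the floor of 3 reads and the bounds on folds hold only at the recovered depth. Bounds on folds cover counting error only.

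Because RPKM are not counts, log2(RPKM + 0.5) of the 6 libraries, scaled by median ratios, was tested with limma 3.58.1 in R 4.3.3 (moderated with a trend, Benjamini-Hochberg adjustment, two-sided) in genes that reached 1 RPKM in 3 or more libraries. Calls needed a log2 fold change above 1 or below -1, the study's thresholds, and an adjusted p under 0.05. The interaction used all 12 libraries with the same filter. The replicates came from separate crosses according to the study. A single value of 3 libraries against 3 cannot reach an exact permutation p below 0.1, and none is reported. The fits were tested on simulated data. Python 3.11.15, numpy 2.4.6, pandas 2.3.3 and matplotlib 3.10.9 were used for the other steps.

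The genes named are NRPD1, those called lower, the 15 largest changes, the 5 highest levels, called members of 19 gene lists (318 genes, of which 241 were tested) and the 5 largest interactions in each direction. Others were named after their values were seen. The comparison, the lists and the families were chosen with earlier results of these data known. The results were recomputed with pseudocounts of 0.1 and 1, without the filter, with a filter on mean RPKM (5 or more), with unscaled RPKM, quantile normalization, the replicate number as a block, removal of the exon-length trend, all 12 libraries in one fit, and each library left out. Counts per list without 3x nrpd1 replicate 3 were added after seeing the data.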

Additional observations from a re-analysis of the deposited data

Results flagged for a closer look

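Effects that differed between the pollen genotypes by the interaction test (limma, all 12 libraries, adjusted p under 0.05) are given as the log2 change with wt pollen minus that with nrpd1 pollen. Over all genes the term was called above 1 in 988 genes and below -1 in 515. Among genes called higher in 3x nrpd1, the change was larger with wt pollen in the seed storage genes SESA4 (5.30), SESA2 (4.46), SESA3 (3.85), SESA5 (3.66) and PAP85 (3.11) and the cupin AT2G28490 (2.64). It was larger with wt pollen also in the oil body genes OLEO1 (2.84), AT3G01570 (2.26), AT1G48990 (1.53), AT3G18570 (1.25) and OLEO4 (1.21). The lipid-transfer genes LTP2 (3.60) and LTP3 (1.78) and the metabolic genes ICL (2.99), SUS2 (2.25), FAE1 (1.80), PAL4 (1.47) and AKR4C8 (1.38) had differences of the same sign. So had the embryo genes AT2G21820 (3.03), a seed maturation protein, ATS3 (1.65), FLC (1.49), AtLEA4-1 (1.48) and PEI1 (1.10) and the uncharacterized AT3G63040 (2.47).

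The change was larger with nrpd1 pollen in 13 of the genes called higher: MIR833a (-3.55), AT1G26797 (-3.15), AT1G43666 (-3.09), LCR30 (-3.03), AT4G33560 (-2.76), AT1G43667 (-2.67), AT5G19175 (-2.66), AT5G28000 (-2.42), AT3G61930 (-2.09), AT1G24212 (-1.91), AT3G21670 (-1.81), AT4G12825 (-1.79) and AT1G12805 (-1.46). Of these, AT4G33560 (106 to 281 RPKM) and AT1G12805 (81.2 to 117 RPKM) had high levels in 3x nrpd1, and the other 11 had at most 11.7 RPKM in any 3x nrpd1 library.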

How the results depend on the processing

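Of the 159 genes called higher, 142 were called with a pseudocount of 0.1, 152 with 1 and 117 with no filter. With a mean of at least 5 RPKM, 90 of the 102 still tested were called, and with RPKM as deposited 122. The number was 154 with quantile normalization, 147 with the exon-length trend removed and 156 with all 12 libraries. All of the 159 that were tested stayed positive, a sign largely given by their separate libraries. Over all genes the median log2 fold change was -0.02, -0.14 with RPKM as deposited and -0.05 with quantile normalization. The count of genes called higher was 90 with a mean of at least 5 RPKM, where fewer genes were tested, and 364 with all 12 libraries in one fit, which share the spread of the wt groups. Leaving out each library gave 13 to 197 genes. The count called lower was 1 with a pseudocount of 1, 13 with no filter, 1 with a mean of at least 5 RPKM, 5 with RPKM as deposited, 9 with quantile normalization, 14 with the exon-length trend removed, 11 with that and the replicate block, 19 with all 12 libraries, and 1 to 19 with each library left out. The cause of these differences was not tested. The interaction was called with a higher signed change with wt pollen in 514 genes with a mean of at least 5 RPKM and in 450 to 1202 with each library left out, the lowest being without 3x wt replicate 3 (450) and replicate 2 (458), and with a higher signed change with nrpd1 pollen in 334 to 696. NRPD1 changed sign to 0.27 with the exon-length trend removed, with and without the block, and to 0.03 without 3x nrpd1 replicate 3, against -0.30 without 2x nrpd1 replicate 3, the lowest value, and none was called. The galactinol and raffinose list had no gene with a mean of at least 5 RPKM.

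Same-numbered libraries of 3x and 2x nrpd1 deviated from their group means with correlations of 0.239, -0.145 and 0.168 across genes. Pairs with different numbers ranged from -0.268 to 0.147. So few values, tied through their group means, cannot decide whether the numbers pair the samples. With the replicate number as a block, 116 genes were called higher and 3 lower, 103 of the higher ones among the 159, and with the exon-length trend removed as well 187 were called higher, 134 of them among the 159. The genes called higher had a median exon length of 1060 bases against 1779 for all tested, and 3x nrpd1 replicate 3 was the library whose level varied most with exon length. Depth limits the genes under about 3 reads per library, which cannot be told from 0.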
